A study of Homo sapiens with 5 samples.

Results

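Purine-tract origins were the 3-hour ini-seq 2 origins in which A and G together made up at least 80% of the bases of 1 strand of hg38, so that the opposite strand was almost all C and T. The deposited 3-hour list held 23905 origins, and 678 of them (2.84%) met this limit, each counted over the whole interval from start to end. All samples came from EJ30 cells, a human bladder carcinoma line, and each condition was represented by 1 list. For ini-seq 2, nuclei of cells held in late G1 phase with mimosine were incubated in HeLa cytosolic S100 extract with Br-dUTP in place of dTTP for 3 hours or 15 minutes, and DNA with 1 newly copied, heavy strand (HL) was parted from unreplicated light DNA (LL) on caesium sulfate gradients. For SNS-seq, RNA-primed short nascent strands of 0.5 to 2 kb and of 2 to 4 kb were isolated from the same line and peaks were called against genomic DNA. The reaction takes place in a cell-free extract and a single tumour line was used, which limits both maps as models of normal cells. The value given for each 3-hour origin is its efficiency, HL/(HL + LL), a fraction that is at least 0.8 in every called origin. The 3-hour list pools 2 biological replicates and holds no read counts, so depth per origin is unknown, no spread between replicates could be computed, and the intervals below cover counting error only.

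A stretch of DNA with purines on 1 strand and pyrimidines on the other is called a homopurine tract. Such tracts are common in vertebrate genomes as microsatellites of A and G and as less regular runs. Mirror-symmetric ones can fold into an intramolecular triplex (H-DNA), runs of G within them can form G-quadruplexes, and both kinds of structure are known to stall DNA polymerases. Most human replication origins mapped by sequencing lie instead in GC-rich DNA around gene starts and CpG islands, where both strands hold purines and pyrimidines in similar amounts.

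Most members held short tandem repeats of A and G, which covered a minority of their bases. Exact tandem copies of units of 1 to 6 nt, at least 3 copies and 12 nt long, were searched on the purine-rich strand, and the unit that covered most bases was taken as the leading unit of a member. AAGG led in 167 members (24.6%), AGG in 146, AGGG in 122, AG in 58 and AGGGG in 42, so that these 5 units led in 535 of 678 (78.9%). Another 19 units led in the remainder, apart from 34 members in which no such run was found. The central 150 bases of the member richest in each of the 3 commonest units, outside UTRs, are shown 5′ to 3′ on the purine-rich strand, with exact copies of the leading unit in capitals, because they show how regular the repeats were.
AAGG, chr3:180860076-180860225, plus strand: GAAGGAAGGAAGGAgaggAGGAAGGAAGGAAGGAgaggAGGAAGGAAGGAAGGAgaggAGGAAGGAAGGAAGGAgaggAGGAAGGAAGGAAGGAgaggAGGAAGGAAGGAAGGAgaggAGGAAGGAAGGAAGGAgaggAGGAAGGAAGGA
AGG, chr7:155258976-155259125, minus strand: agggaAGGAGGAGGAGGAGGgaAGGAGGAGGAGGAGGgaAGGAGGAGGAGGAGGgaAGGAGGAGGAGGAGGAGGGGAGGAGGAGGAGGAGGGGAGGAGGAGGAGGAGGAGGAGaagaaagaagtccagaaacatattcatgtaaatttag
AGGG, chr18:53861376-53861525, plus strand: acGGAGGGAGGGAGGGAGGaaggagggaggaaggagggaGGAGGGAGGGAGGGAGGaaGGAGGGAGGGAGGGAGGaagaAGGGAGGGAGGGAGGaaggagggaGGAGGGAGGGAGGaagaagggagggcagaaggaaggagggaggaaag
The member led by AAGG, with an efficiency of 0.8413, alternated runs of AAGG with a break of the same 4 bases, and 51% of the whole origin lay in copies of the unit, the largest share of any member. In the AGG member, with an efficiency of 0.8867, the repeat ended inside the stretch shown and gave way to mixed sequence.

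Long perfect arrays were the exception. The median member had 21.4% of its bases in exact tandem copies of any unit, 154 members had under 10% and 646 had under 50%. The longest unbroken purine run of a member had a median of 125 nt, against 13 nt in the other 23227 origins, and the longest reached 622 nt.

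Mirror repeats (perfect arms of at least 10 nt around a loop of up to 100 nt) covered a median of 63.8% of a member and 0% of another origin, with means of 61.8% and 2.14%. A G-quadruplex motif, here 4 G-runs of 3 bases or more that are 1 to 7 nt apart, was found in 460 members (67.8%) and in 71.1% of the other origins. In the members all 460 carried it on the purine-rich strand and 1 also on the pyrimidine-rich strand. These features follow in large part from the composition that chose the members, and no test was made of them. The purine-rich strand held 41.8% A, 49.2% G, 4.77% T and 4.27% C on average, so T was 4.77% of this strand and 41.8% of its complement. In the other origins the strand with more purines held 15.3% T and its complement 17.4%. Because newly copied DNA is recognised through bromodeoxyuridine in place of T, these values stand beside the efficiencies, and their part in the results was not tested.

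The purine excess of the members was confined to the origin and its near flanks, and its central peak follows from the rule that chose them. Around the centre of the members the purine share averaged 96.2% and 96.4% in the 2 bins of 100 bp nearest the centre, and 57.1% and 55.7% in the bins centred 450 bp to either side. It was 51.2% and 50.7% in the bins at 5 kb, so the flanks were of ordinary strand composition. GC content peaked at 55.4% in the centre over flanks of 45.1% and 44.9%. The other origins peaked at 68.9% over flanks of 49.7% and 49.8%, with a broader shoulder.

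**Figure D1:**
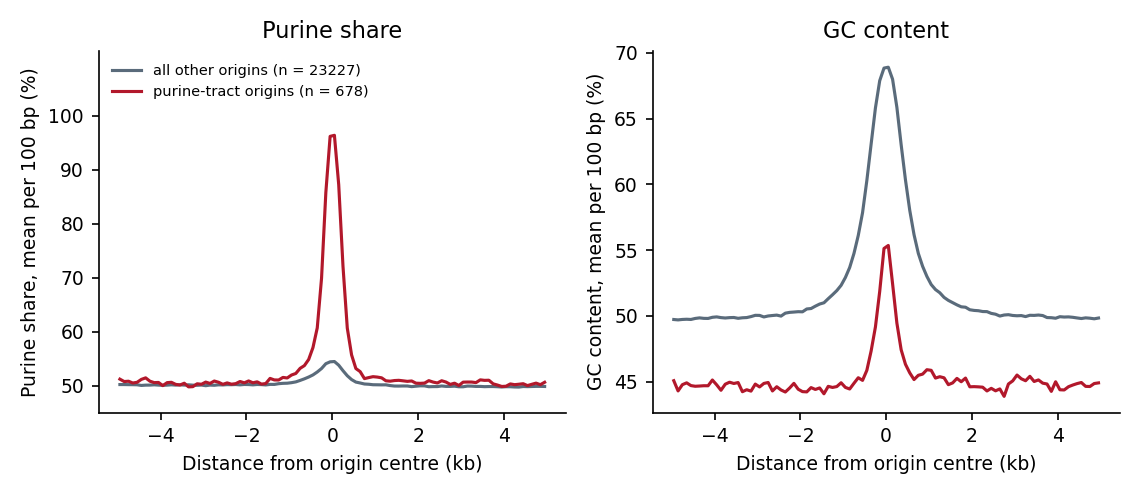
Mean purine share (left) and mean GC content (right) per 100 bp, in percent, against distance from the origin centre in kb, with every origin turned so that its purine-rich strand reads left to right. The 678 purine-tract origins (red) reach 96.4% purines at the centre and 55.4% GC, and the 23227 other origins (grey) reach 54.5% purines and 68.9% GC at the centre.

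Members were also shorter and less GC-rich than other origins. The median length was 400 bp (quartiles 300 and 600 bp) against 700 bp (500 and 1200 bp), and 221 members (32.6%) had the smallest deposited length of 300 bp, as had 14.0% of the others. Chromosome by chromosome the mean length of the members was lower in 23 of 23 chromosomes, with a mean difference of -493 bp (members 495 bp, others 996 bp, SD of the difference over chromosomes 161 bp). Flipping the sign of the chromosomes' differences at random gave p = 1e-05 (two-sided permutation test, adjusted p = 1.2e-05 over 12 tests), which is the smallest p that 100000 flips can give. Against other origins of the same GC content the difference was -1.90 bp (permutation test, p = 0.95). Median GC content was 53.3% in the members, with a range from 35.7% to 71.2%, against 67.2% in the others. Of all 73 origins under 45% GC, 67 were members, and under 55% GC the members were 403 of 515. Only 41 members (6.05%) met a CpG island criterion on composition (GC content over 50% and an observed to expected CpG ratio over 0.6), which 55.1% of the other origins met.

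The efficiency of the members lay in the middle of the range. The median was 0.878, with quartiles of 0.855 and 0.901 and a range from 0.803 to 0.981, and the other origins had a median of 0.872 with quartiles of 0.829 and 0.924. The mean was 0.878 in both groups, but the SD over origins was 0.0326 in the members and 0.0533 in the others. Averaged over chromosomes the members differed from the others by -0.00158 (SD over chromosomes 0.0129), lower on 14 of 23 chromosomes, which did not pass the test (permutation test, p = 0.46, adjusted p = 0.46). Cuts at efficiencies of 0.842 and 0.907 gave 3 equally large classes of the list, and 127 members (18.7%, exact Clopper-Pearson 95% interval 15.9 to 21.9%) fell in the high class, which by construction held 33.3% of all origins. The low class, with 33.4% of all origins, took 95 members (14.0%, interval 11.5 to 16.9%), and the medium class took 456 (67.3%, interval 63.6 to 70.8%). Both outer classes held fewer members than other origins on 22 of 23 chromosomes, by -15.9 percentage points for the high class (SD 13.4) and by -18.9 for the low class (SD 8.96), each with p = 1e-05 and adjusted p = 1.2e-05 in the permutation test. The low class difference was -44.8 points against others of the same GC content (permutation test, p = 1e-05).

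**Figure D2:**
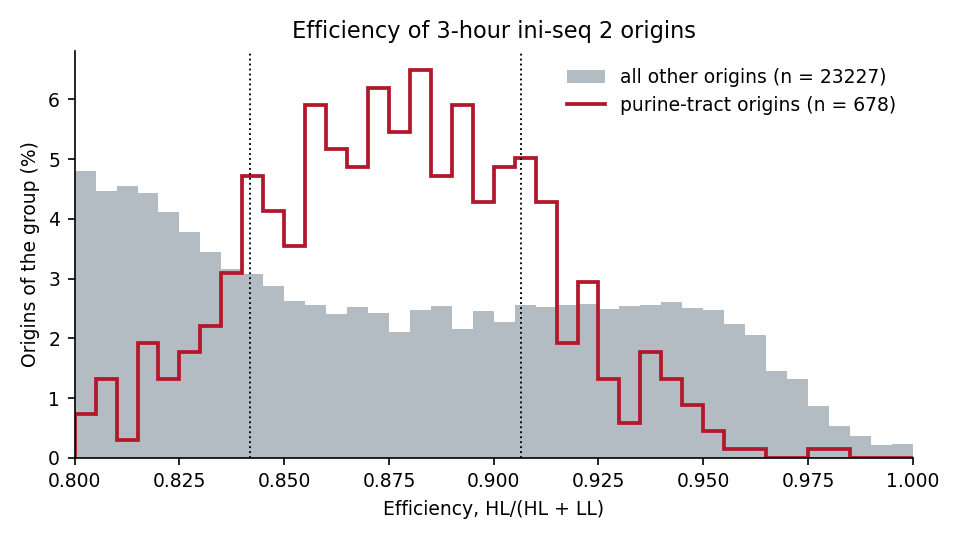
Percent of the origins of each group in bins of 0.005 of efficiency, for 678 purine-tract origins (red line) and 23227 other origins (grey). Dotted lines mark the class limits of 0.842 and 0.907. The members gather between the lines (67.3% of them), and the others are spread over the whole range.

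The efficiency difference depended on what the members were compared with. Among the other origins efficiency went with GC content (Pearson's r = 0.78, Spearman's correlation = 0.81 over 23227 origins), and among the members it did not (Pearson's r = 0.02, Spearman's correlation = 0.04 over 678). These correlations run over positions of 1 map, which share libraries and are not replicates, and are given as descriptions. Between 55 and 60% GC the 173 members had a median efficiency of 0.879 (quartiles 0.856 and 0.898) and the 735 other origins a median of 0.819 (0.807 and 0.836). In that range 80.8% of the other origins were of the low class and 0.136% of the high class, against 13.3% and 14.5% of the members. Between 60 and 65% GC the medians were 0.885 in 79 members and 0.823 in 5749 others. Other ranges had closer medians. They were 0.874 in 113 members and 0.855 in 22 others at 45 to 50% GC. At 50 to 55% they were 0.8715 in 223 and 0.839 in 84, and at 65 to 70% 0.887 in 22 and 0.870 in 10240. Against other origins of the same GC content, in bins of 2 percentage points, the members were more efficient by 0.0382 on average, higher on 23 of 23 chromosomes (permutation test, p = 1e-05), and the high class held 14.7 percentage points more of them. The reference of a bin was the mean of its other origins over all chromosomes, so the chromosomes shared it. The difference was 0.0130 against others of the same length, 0.0159 among origins without a gene start and 0.0406 among origins that missed the CpG island criterion (permutation test, largest p = 2e-05). All called origins have an efficiency of at least 0.8, so an origin of low GC content that fell short of this limit is missing from either group.

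**Figure D3:**
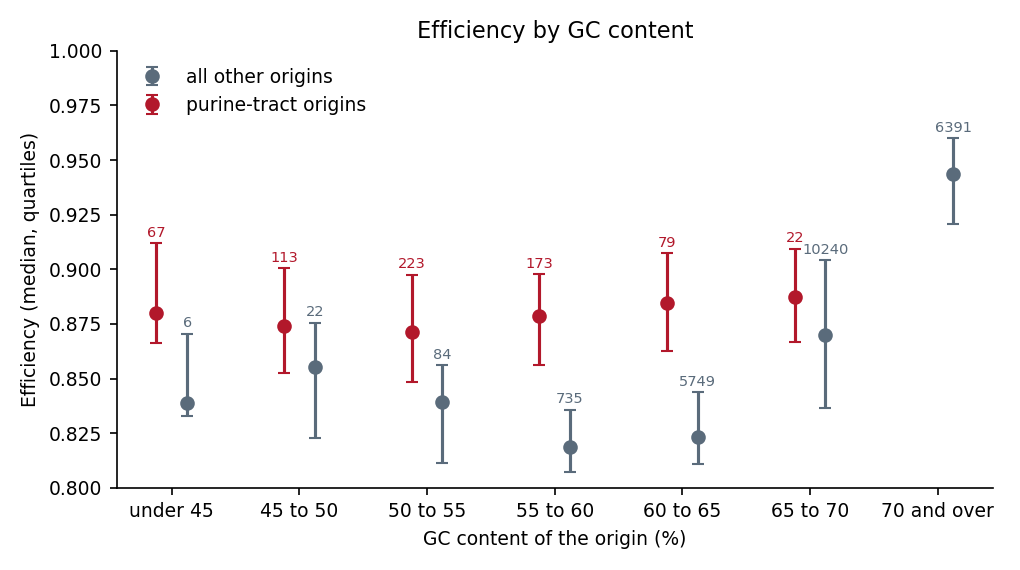
Efficiency (median with quartiles as bars) against GC content of the origin in percent, for purine-tract origins (red) and other origins (grey), with the number of origins above each bar and groups of fewer than 5 left out. The red medians lie between 0.871 and 0.887 in all 6 GC ranges shown, and the grey ones go from 0.819 at 55 to 60% GC to 0.943 at 70% and over.

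Within the members efficiency went with the purine share instead. Over the 678 members Pearson's r was 0.36 and Spearman's correlation 0.37. The median efficiency was 0.859 in the 116 members of 80 to 85% purines, 0.870 in the 158 of 85 to 90%, 0.880 in the 197 of 90 to 95% and 0.893 in the 207 of 95% and more. The share in the high class was 3.45%, 7.59%, 19.8% and 34.8% in the same order, and these groups are ranges cut from 1 scale. Over all origins the median was not ordered in this way, since it went from 0.879 at 50 to 55% purines to 0.842 at 65 to 70% and only then to 0.893 at 95 to 100%. Efficiency went less with length, with the share of bases in tandem copies and with the longest purine run, where Spearman's correlations were 0.16, 0.16 and 0.27. The leading units differed little, with medians from 0.858 for the 21 members led by AAGGG to 0.885 for the 24 led by AAAG, whose quartiles of 0.838 and 0.915 spanned those of AAGGG (0.846 and 0.887). AAAG was also the unit of the lowest GC content, with a median of 41.4%.

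The 5 members of highest efficiency illustrate the range of sequence. The first spans 97251301 to 97251700 on chromosome 10, in an intron of ARHGAP19, with 99.0% purines, 60.8% GC and an efficiency of 0.981. The second, in an intron of CSRNP3 on chromosome 2 from 165666601 to 165667000, had an efficiency of 0.978 at 97.0% purines and only 44.5% GC. The others were an intergenic origin 9.37 kb from OGDH on chromosome 7 (44596901 to 44597200, 0.961), an intronic one in the gene ENSG00000227482 on chromosome 9 (113678101 to 113678400, 0.957) and one in an intron of the serine protease gene TMPRSS9 on chromosome 19 (2418501 to 2419200, 0.953). None of these 5 overlapped a 15-minute origin or an SNS-seq peak, which 0.590% and 8.55% of all members did. In the TMPRSS9 origin 42.4% of the 50-mers occur once in hg38, so uniquely aligned reads of 50 nt could cover only part of it, and in the other 4 the share was at least 95.4%.

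At the limit of 80% there was no break in the values. The 5 members nearest above it had 80 to 80.2% purines and efficiencies from 0.829 to 0.884, and the 5 origins nearest below it had 79.7 to 79.8% and efficiencies from 0.830 to 0.874. None of these 10 had a 15-minute origin or an SNS-seq peak over it. Of the 96 origins of 75 to 80% purines 23.96% had a peak and 2.08% a 15-minute origin. At 80 to 85% these shares were 18.97% and 1.72% of 116.

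Hardly any member was called after 15 minutes. An origin of the 15-minute list overlapped 4 of 678 members (0.590%, interval 0.161 to 1.504%), where 40.1% of all 3-hour origins and 41.3% of the other origins had one. The share of the members was lower on 23 of 23 chromosomes, on average by -41.3 percentage points (SD 7.88, permutation test, p = 1e-05, adjusted p = 1.2e-05). Efficiency went with this readout in the other origins, where the share called at 15 minutes was 85.6% in the high class, 33.6% in the medium and 4.60% in the low. Of the members, 2 of 127 in the high class, 2 of 456 in the medium and 0 of 95 in the low class, which allows up to 3.16% by the limit of 3 counts, were called. Against others of the same efficiency, in bins of 0.01 chosen after seeing the data, the difference was -38.5 points. Against others of the same GC content it was -1.74 points (permutation test, p = 1e-05 for both). Under 60% GC 8 of the 847 other origins (0.945%) were called at 15 minutes, beside 2 of 576 members (0.347%). The intervals of these last shares, 0.409 to 1.85% and 0.0421 to 1.25%, overlap.

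The 4 members called at both times were all longer than the median member. The origin at 29707101 to 29707700 on chromosome 1 lies 380 kb from PTPRU, had an efficiency of 0.917 and is the member of highest GC content, 71.2%. The origin in an intron of PPP2R5C, which encodes a regulatory subunit of a serine/threonine phosphatase, spans 101781301 to 101783500 on chromosome 14 and had 81.5% purines over 2200 bp, while the 500 bp called inside it at 15 minutes had 67.4%. The origin in an intron of LAT2, an adaptor of immune cell signalling, at 74203801 to 74204600 on chromosome 7, held a 15-minute interval of 300 bp with 97.3% purines. The longest member of all, 4300 bp from 23465501 to 23469800 on chromosome 19 and 55.8 kb from ZNF675, held one of 400 bp with 92.8%. These 4 were singled out after their values were seen.

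SNS-seq peaks were rare over the members as well. A peak of either fraction overlapped 58 members (8.55%, interval 6.56 to 10.9%), where 91.6% of all origins and 94.0% of the others had one. The share was lower on 23 of 23 chromosomes, on average by -85.5 percentage points (SD 6.24, permutation test, p = 1e-05, adjusted p = 1.2e-05). Peaks of the 2 to 4 kb fraction overlapped all 58, and peaks of the 0.5 to 2 kb fraction 11 of them (1.62% of the members, against 80.2% of the others). The high class of members had a peak in 9.45%, the medium in 7.46% and the low in 12.6%, whereas in the other origins the shares were 99.7%, 94.7% and 87.8%. The difference was -26.1 points against others of the same GC content, -86.4 points against others of the same efficiency and -77.9 points among origins outside exons and gene starts, the last 2 comparisons having been added after seeing the data (permutation test, p = 1e-05 for each). Between 55 and 60% GC a peak overlapped 9.25% of 173 members and 57.7% of 735 other origins, and between 60 and 65% GC 10.1% of 79 and 88.0% of 5749. At lower GC content few other origins had a peak either. The shares were 6.73% of 223 members and 15.5% of 84 others at 50 to 55% GC. They were 6.19% of 113 and 13.6% of 22 at 45 to 50%, and 2.99% of 67 and 16.7% of 6 under 45%.

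Within the members, the 58 with a peak had a median purine share of 87.9%, a median length of 500 bp and a median GC content of 55.7%, against 91.8%, 400 bp and 53.0% in the 620 without one. Their next 3-hour origin was at a median of 6.90 kb, against 53.2 kb. The share with a peak was 2.99% under 45% GC and 17.6% at 60% and over. By purine share it was 18.97% at 80 to 85% purines and 4.35% at 95% and more. These differences within the members were not tested. In the 58 members a median of 36.0% of the interval lay under peaks, and 20 had at least 50% covered. Over all origins the share with a peak was 95.8% at 50 to 55% purines, 75.7% at 65 to 70%, 54.5% at 70 to 75% and 23.96% at 75 to 80%.

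Many members also lacked an SNS-seq peak in the 5 kb around them. A peak lay within 5 kb of 363 members (53.5%, interval 49.7 to 57.3%), where 97.6% of all origins and 98.9% of the others had one. These shares include overlapping peaks, which were already over 8.55% of the members and 94.0% of the others. Of the 575 origins that lacked a peak this close, 315 (54.8%) were purine-tract origins, although these are 2.84% of the list. For members without an overlapping peak the nearest one was at a median of 5.14 kb (quartiles 1.68 and 15.9 kb).

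**Figure D4:**
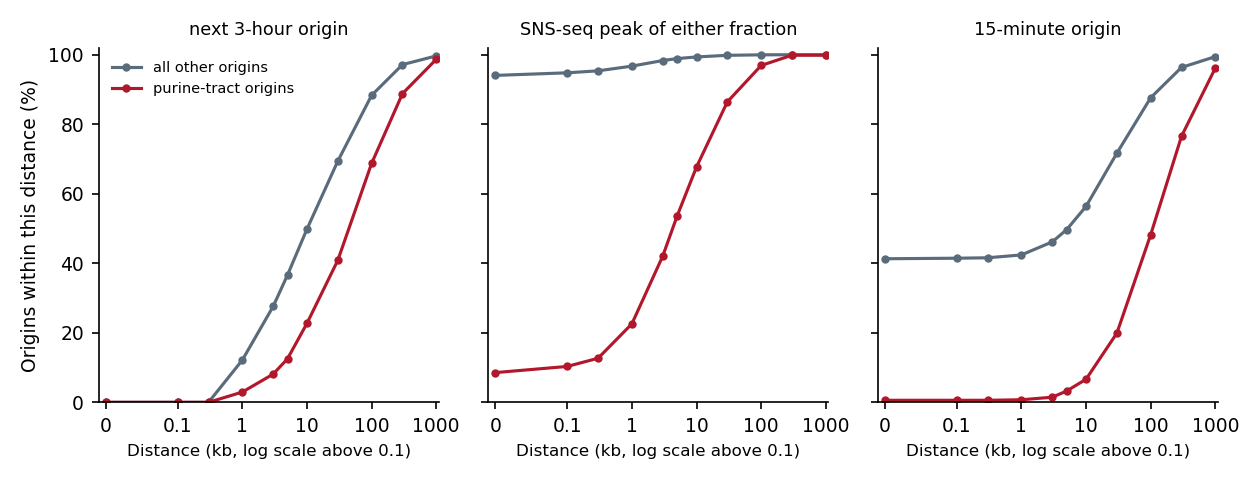
Percent of origins that have the next 3-hour origin (left), an SNS-seq peak (centre) or a 15-minute origin (right) within the distance on the x axis in kb, which is linear up to 0.1 and logarithmic above, for purine-tract origins (red) and other origins (grey). At distance 0 the curves stand at 8.55% and 94.0% for SNS-seq and at 0.590% and 41.3% for the 15-minute list.

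Reads can be placed only where the sequence is unique. On average 95.5% of the 50-mers of a member occur once in hg38, against 99.6% in the other origins, and in 457 members (67.4%) all of them do. In these 457 members 36 had an SNS-seq peak (7.88%) and none was called at 15 minutes, which allows a share of up to 0.656% by the limit of 3 counts (exact 95% interval up to 0.804%). Without the 94 members in which under 90% of the 50-mers are unique, a restriction added after seeing the data, the share with an SNS-seq peak was 8.39% and the difference in efficiency from the others was -0.00192 (permutation test, p = 0.36).

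The other lists contained few intervals of this kind. By the same limit 4 of 10181 origins of the 15-minute list (0.0393%), 51 of 147529 peaks of the 0.5 to 2 kb fraction (0.0346%) and 166 of 184832 peaks of the 2 to 4 kb fraction (0.0898%) on chromosomes 1 to 22, X and Y were at least 80% purine, beside 2.84% of the 3-hour origins. Of these, 2, 2 and 15 overlapped a purine-tract origin. Interval length differs between the lists, with median lengths of such intervals of 350, 250 and 241 bp, beside 400 bp at 3 hours.

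Members lay away from exons and gene starts. Introns held 366 (54.0%, interval 50.1 to 57.8%) and intergenic DNA 287 (42.3%, interval 38.6 to 46.1%). A coding exon was touched by 10, a UTR alone by 4, another exon by 8 and a gene start of GENCODE 44 by 3. In the other origins a gene start was covered by 37.9%, a coding exon by 23.6%, and 15.6% lay in introns and 13.8% in intergenic DNA. The difference was -38.0 percentage points for gene starts (SD over chromosomes 5.74), -28.4 for lying in a gene at all (57.7% against 86.2%, SD 11.4) and 38.6 for lying wholly in introns (SD 10.9). Each went the same way on 23 of 23 chromosomes (permutation test, p = 1e-05, adjusted p = 1.2e-05). Against others of the same GC content these differences shrank to -4.52, -12.0 and 9.36 percentage points, in the same direction on 22, 22 and 18 of 23 chromosomes (permutation test, p = 1e-05, 2e-05 and 0.00019). The median distance to the nearest gene start was 19.9 kb in the members and 1005 bp in the others. None of the members covered the start of a protein-coding gene, and the 3 gene starts belonged to ENSG-numbered genes without a symbol on chromosomes 9, 12 and 20. The median efficiency was 0.879 in the intronic and 0.877 in the intergenic members.

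Of the 10 members over a coding exon, the 5 of highest efficiency were those in PPP2R5E, which encodes another regulatory subunit of the same phosphatase family (chromosome 14, 63395201 to 63396300, efficiency 0.926), in the lipid transporter gene ABCA7 (chromosome 19, 1052201 to 1052800, 0.911), in RPGR, which encodes a protein of the photoreceptor cilium (0.910), in the phosphatase regulator gene PPP1R16B (chromosome 20, 38895701 to 38896300, 0.875) and in the ciliary gene CFAP46 (chromosome 10, 132912001 to 132912700, 0.870). Their purine shares were 93.1%, 84.2%, 98.4%, 96.0% and 86.3% in this order. ABCA7 and CFAP46 had an SNS-seq peak over them, and the nearest peak was 34 bp from the RPGR origin. In all, 5 of the 10 members classed as coding exon had a peak.

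Some genes held several members. Different genes with a member numbered 403, of which 18 held 2 and 4 held 3 or more. RBFOX1, a splicing factor gene of neurons, had 4 over its introns on chromosome 16, with efficiencies of 0.904, 0.859, 0.909 and 0.918 in order of position. ZNF536, a zinc finger gene expressed in the nervous system, had 4 on chromosome 19 with 0.856, 0.947, 0.880 and 0.832. The plexin gene PLXNA4 had 3 (0.858, 0.911 and 0.927) and the calcium-binding protein gene CALN1 had 3 (0.858, 0.874 and 0.898), both on chromosome 7. None of these 14 members had an SNS-seq peak, where 8.55% of all members had one. All 4 of ZNF536, which is on the plus strand, had their purines on the minus strand, while in RBFOX1, also on the plus strand, 3 of 4 had them on the plus strand.

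Relative to the plus strand of hg38 the purine-rich strand was plus in 313 members and minus in 365. Relative to genes it was not even. Of the 365 members in genes of 1 strand only, 247 (67.7%, interval 62.6 to 72.4%) had the purines on the template strand, so that the transcript would carry the pyrimidines, and 118 had them on the coding strand. The excess of coding over template members was -35.3 percentage points averaged over chromosomes (SD 29.98) and negative on 22 of 23 (permutation test, p = 1e-05, adjusted p = 1.2e-05). In protein-coding genes alone 70.3% of 273 members had the purines on the template strand. The same asymmetry was present in purine tracts of genes without regard to origins. Of 6479 tracts of hg38 in genes of 1 strand 67.1% (interval 65.9 to 68.3%) had their purines on the template strand, and of the 5790 with no 3-hour origin 67.5% had. Members in intergenic DNA, set against the strand of the nearest protein-coding gene, were split into 149 on its coding and 138 on its template strand. In the other origins the strand with more purines was the coding strand in 52.3% of 15400.

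Chromosomes 1 to 22 and X all carried members, from 5 on chromosome 21 to 65 on chromosome 7. None lay on Y, but 23223 of the 23227 other origins were also on chromosomes 1 to 22 and X. Per megabase chromosome 19 stood first with 1.007, followed by chromosome 20 with 0.652 and chromosome 7 with 0.408, and chromosome X was last with 0.0577. As a share of the origins of the chromosome the order was different, with chromosomes 20 (5.01%), 18 (4.90%) and 7 (4.88%) highest and chromosomes 22 and 21 (both 1.58%) lowest, and chromosome 19 at 2.47%. Of the 5 longest members, 3 lay on chromosome 19, the one near ZNF675 already described, one of 3900 bp from 23878601 to 23882500 and one of 2000 bp from 24179501 to 24181500 that is 49.5 kb from ZNF254. All 3 were led by AGG and had 94.1 to 95.6% purines. The other long members were the 2200 bp in PPP2R5C and 3000 bp in an intron of ANKDD1A on chromosome 15, which had 97.0% purines, only 38.7% GC and an efficiency of 0.949. Chromosome ends held fewer members than other origins, with 14.7% and 28.1% within 5 Mb of an end. That difference was -13.7 percentage points (SD over chromosomes 21.7) and negative on 20 of 23 chromosomes (permutation test, p = 8e-05, adjusted p = 8.7e-05). It was -4.45 points against others of the same GC content (permutation test, p = 0.031) and -29.7 among origins that missed the CpG island criterion (p = 1e-05 in the permutation test).

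Members lay farther from the next origin than other origins did. The nearest other 3-hour origin was at a median of 46.1 kb (quartiles 11.7 and 133 kb) from a member and of 10.1 kb (2.60 and 42.1 kb) from another origin. Another origin lay within 10 kb of 154 members (22.7%) and of 49.8% of the others, a difference of -25.6 percentage points (SD 15.1) that was negative on 21 of 23 chromosomes (permutation test, p = 1e-05, adjusted p = 1.2e-05). When origins within 100 kb of each other were joined, 212 members (31.3%) and 11.7% of the others stood alone, and 32.9% and 67.7% fell into domains of at least 6 origins. Against others of the same GC content the difference within 10 kb was -15.5 points, and it was -44.6 among origins that missed the CpG island criterion (permutation test, p = 1e-05 for both). The nearest other member was at a median of 859 kb, and 24 members had one within 10 kb, 90 within 100 kb and 366 within 1 Mb. The spacing of members among themselves was not tested.

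Only a small part of the purine tracts of the genome was called as an origin. Windows of 300 bp on a grid of 100 bp with at least 80% purines on 1 strand, joined where they overlapped, gave 12893 tracts, and all 678 members held one. A 3-hour origin overlapped 1225 tracts (9.50%, interval 9.0 to 10.02%), and a purine-tract origin 679 of them. Of all 29109826 windows of 300 bp on the same grid 0.971% overlapped a 3-hour origin, but tracts were a median of 400 bp long, so the shares are not for equal lengths. The share with any 3-hour origin was 0.352% in the 3123 tracts under 40% GC, 7.09% at 45 to 50% and 16.6% at 50 to 55%. It was 30.2% at 55 to 60% and 44.8% in the 393 tracts of 65% and over. The share with a purine-tract origin was highest at 55 to 60% GC, with 16.1%. It was 11.1% at 60 to 65% and 4.58% (18 of 393) at 65% and over. By purine share, any 3-hour origin overlapped 6.81% of tracts at 80 to 85%, 16.3% at 85 to 90%, 30.3% at 90 to 95% and 54.3% (19 of 35) at 95% and more. Another 2468 tracts fell under 80% purines over their joined length, and any 3-hour origin overlapped 3.61% of them. By length the share with any 3-hour origin was 4.32% at 300 bp and 26.8% at 600 to 1000 bp. Of the 177 tracts over 500 bp with at least 50% GC and 90% purines, 109 overlapped an origin (61.6%, interval 54.0 to 68.8%), 93 of them a purine-tract origin. Where under 90% of the 50-mers of a tract are unique the share with any 3-hour origin was 3.72%, and elsewhere 13.2%. The share differed between chromosomes, from 1.74% of 748 tracts on X to 21.1% of 679 on chromosome 19 and 20.8% of 419 on chromosome 20.

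**Figure D5:**
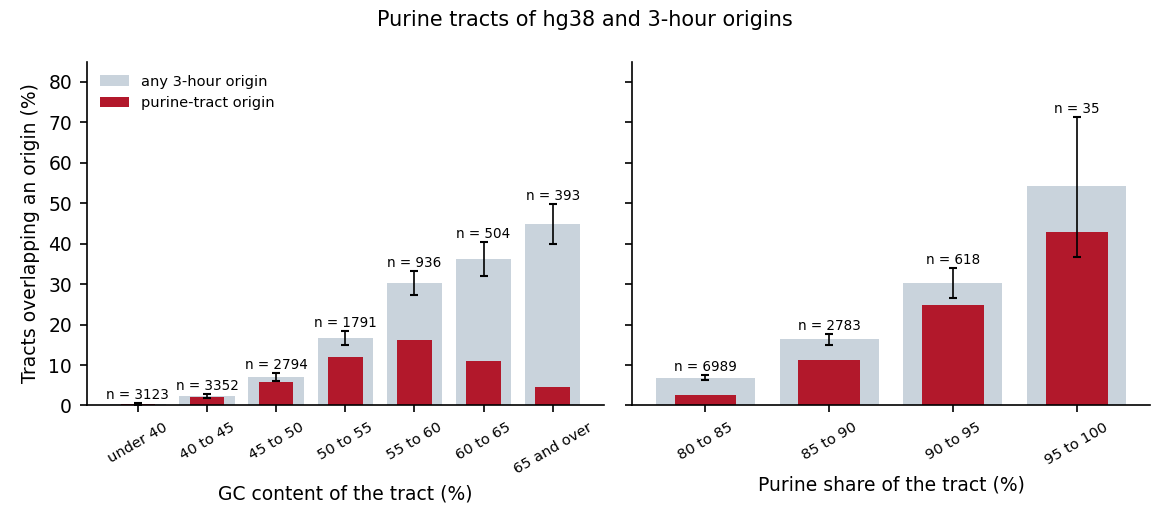
Percent of the purine tracts of hg38 that overlap any 3-hour origin (wide grey bars, with exact 95% intervals) and that overlap a purine-tract origin (narrow red bars), by GC content of the tract in percent (left) and by purine share of the tract in percent (right), with the number of tracts above each bar. The grey bars go from 0.352% under 40% GC to 44.8% at 65% and over, and from 6.81% to 54.3% along the purine share. The right panel leaves out 2468 tracts that fell under 80% purines over their joined length.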

How the data were processed

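The data were 4 lists of hg38 positions from EJ30 cells, and the genomic DNA sample was not analysed here. The authors aligned 50 nt reads with Bowtie2, kept unique reads, removed duplicates, joined enriched windows of 100 bp (log2(HL/LL) of at least 2) that lay within 500 bp. The deposited 3-hour value is the efficiency HL/(HL + LL), a fraction, although the heading calls it a Z-score. The deposited 15-minute value is a score (Z-score). The deposited SNS-seq lists, called by the authors with MACS2, hold positions only.

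Here bases were counted in hg38 with both ends included, because starts end in 01 and ends in 00, and reading the start as the base before the interval became an alternative, the reverse of the plan. Genes were those of GENCODE 44, context was assigned in the order gene start, coding exon, UTR, other exon, intron, and repeat annotation was not used here. Overlap means at least 1 bp. Members and others were compared by the difference of means within each of chromosomes 1 to 22 and X, weighted by members, with 100000 random sign flips, and 12 tests were adjusted by Benjamini-Hochberg. Comparisons at the same GC content, length or efficiency differed from this. There each member was set against the mean of the others of its bin over all chromosomes. The chromosomes therefore shared a reference in those comparisons and were not independent blocks. Chromosomes serve as blocks, since each condition has 1 list, so p-values concern this map and not replicate experiments. Shares have exact Clopper-Pearson 95% intervals, and a count of 0 is also given the limit of 3 counts. The purine share, the tandem units, the distances and the sign flips of differences within chromosomes were tested on simulated data. The comparisons within bins and the test of the gene strand were not. Alternatives changed the purine limit, the interval, the comparison origins, the distances, the gene set and the weighting. The members, lists and tests were chosen with earlier results of these data known. The rule for named sites took the 5 members highest in efficiency, length, purine share and, over coding exons, efficiency, genes with at least 3 members, and the member richest in each of the 5 commonest units. Those of highest purine share and some sequences are not reported here. Python 3.11.15, numpy 2.4.6, scipy 1.17.1 and pandas 2.3.3 were used.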

Additional observations from a re-analysis of the deposited data

How the results depend on the processing

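Of 143 alternative values with a test, 133 were counted as unchanged in direction and in side of the threshold, p = 0.05 in the permutation test. Efficiency at a purine limit of 85% was counted among them, although its difference was positive there (0.00153, permutation test, p = 0.52). All alternatives for the 15-minute list, SNS-seq, gene starts, introns, genes, neighbours, chromosome ends, the low class and the gene strand were unchanged in both. The sizes changed more than the direction. At the same GC content the differences were -1.74 percentage points at 15 minutes, -26.1 for SNS-seq, -4.52 for gene starts, -12.0 for genes, 9.36 for introns, -15.5 for neighbours, -4.45 for chromosome ends and -44.8 for the low class. Changes of direction or of side of the threshold concern efficiency, the high class and length. The difference in efficiency was 0.00644 at a purine limit of 90%, -0.0055 with the purine share of the central 300 bp, 0.0382 against others of the same GC content, 0.0130 against others of the same length, 0.0159 without gene starts and 0.0406 without origins that meet the CpG island criterion, each past the threshold in the permutation test. The difference in the high class was 14.7 percentage points at the same GC content, 15.1 without CpG island origins and -2.67 without gene starts (permutation test, p = 0.15). The difference in length was -1.90 bp at the same GC content. With a limit of 90% the share of tracts with an origin was 16.9% and with windows of 600 bp 23.9%, and the other lists held 2, 3 and 28 intervals (15 minutes, 0.5 to 2 kb and 2 to 4 kb). The cause of these shifts was not tested.

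No paired analysis was possible because each condition has 1 list. Depth per origin is unknown, called origins are cut at an efficiency of 0.8, and a missing 15-minute or SNS-seq call is not a measured 0.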

Other observations

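Purine tracts of hg38 also overlapped origins whose interval as a whole missed the purine limit. Of the 1225 tracts with a 3-hour origin, 546 overlapped only such an origin. These 546 had a median GC content of 60.4%, against 52.4% in the 679 tracts that overlapped a purine-tract origin. Of the 546, 14.3% overlapped a 15-minute origin against 0.589%, and 61.0% overlapped an SNS-seq peak against 10.01%. Tracts with no 3-hour origin overlapped a 15-minute origin in 6 of 11668 cases and an SNS-seq peak in 7.04%. Of the 4 intervals of the 15-minute list that were at least 80% purine, all overlapped a 3-hour origin and 2 overlapped a purine-tract origin.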
